A study of Homo sapiens with 6 samples.

Results

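Regulators of G protein signalling (RGS proteins) were examined at the RNA level in cells labelled Hep3B, a human liver cancer cell line. The 10 genes RGS2, RGS3, RGS4, RGS5, RGS10, RGS12, RGS14, RGS16, RGS19 and RGS20 were taken by gene name from a table of 27009 genes. They filled 11 rows, because RGS5 had a protein-coding row and a second row of antisense type. RGS2 was chosen by its known log2 fold change between these groups and the others as members of its family, so the differences of these genes are given as a description, with no p-value. All 6 libraries came from cells whose own PD-L1 gene had been knocked out. The 3 vector libraries came from knockout cells that carried the empty vector. The 3 nPD-L1 libraries came from knockout cells infected with a lentivirus that carried pCDH-CMV-Puro with a PD-L1 coding sequence, altered so that the protein gathers in the nucleus and driven by the CMV promoter. The labels do not say that the libraries of a group came from separate cultures or clones, so the spread between them, and every p-value, may be partly technical. The comparison of these groups asked which transcripts differed when nuclear PD-L1 was present.

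Heterotrimeric G proteins pass signals from G protein coupled receptors into the cell. The Gα subunit is active while it holds GTP, and RGS proteins bind active Gα and speed the hydrolysis of that GTP, which ends the signal. RGS2 is known for its preference for Gαq, the subunit that turns on phospholipase C, and its transcript is known to be induced by cyclic AMP and by calcium signals in many cell types.

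Values are scaled reads, which are the reads of a gene divided by a factor for each library. Their sums ran from 18082164 to 19682128 in the 6 libraries, a likeness that the scaling itself sets. The reads before scaling were recovered in 4 libraries, which held 17427519 to 22253295. CD274, the gene of PD-L1, had 28.3 to 47.8 scaled reads in vector against 16.8 to 30.9 in the libraries labelled nPD-L1. It was not higher where PD-L1 had been introduced, so the direction of each difference below rests on the labels, and nPD-L1 libraries means the libraries with that label. Of 13 hepatocyte markers with a row, 7, among them ALB, APOA1 and TTR, were under 5 scaled reads in every library, while the fibrinogen genes FGA, FGB and FGG ran from 657.8 to 3286. HNF4A, a defining liver transcription factor, ran from 6.24 to 51.6. AFP and GPC3, also among the 15 listed hepatoma and hepatocyte markers, had no row. Of 7 markers of leukocytes, endothelium and fibroblasts with a row, 6 were under 20 in every library, and COL1A1, a fibroblast collagen, ran from 49.9 to 487.2. The identity of the line rests on the labels, and the part of these marker levels in the RGS values was not tested.

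The window before the RGS2 start is printed because RGS2 is the gene the results turn on. It covers the 250 bases upstream of the transcript start in RefSeq on GRCh38.p14, + strand, at chr1:192808789-192809038, read 5′ to 3′. Capitals mark letters that matched 1 of 6 searched motifs.

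RGS2 promoter: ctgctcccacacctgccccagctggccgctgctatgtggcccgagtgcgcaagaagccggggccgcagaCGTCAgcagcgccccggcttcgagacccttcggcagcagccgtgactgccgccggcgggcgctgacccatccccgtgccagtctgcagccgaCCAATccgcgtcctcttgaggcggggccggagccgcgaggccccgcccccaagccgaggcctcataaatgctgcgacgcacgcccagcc

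The first capitals, CGTCA, lie from −181 to −177 bases of the start and are the reverse complement of TGACG, the core of the cyclic AMP response element. The second, CCAAT, lie from −89 to −85. On either strand, TGACG was held by 21.2% of the 35116 windows of this length and CCAAT by 32% of them. The full element TGACGTCA, which contains TGACG, was held by 1.65% of all windows, the AP-1 element TGANTCA by 6.57%, the SMAD element GTCTAGAC by 0.182% and the TATA box TATAAA by 10.7%. None of these last 4 sets of letters was in the RGS2 window. A match is a description of letters and no measure of binding. The RGS2 window was 72.8% G or C, against a median of 58% over all windows, and 85.3% of windows held less. Windows were searched for 9 of the 10 genes, 23 windows in all, and RGS20 was left out of the search. TGACG also occurred in 2 of 4 windows of RGS4, 1 of 5 of RGS12 and 1 of 5 of RGS3, and the full element in 0 of the 23.

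RGS2 (ENSG00000116741, chr1:192809039-192812283, + strand) was lower in the nPD-L1 libraries. RGS2 had 1122, 730.7 and 1131 scaled reads in vector replicates 1, 2 and 3. It had 346.2, 154.8 and 165.0 in nPD-L1 replicates 1, 2 and 3. The groups did not overlap, and the lowest vector library was 2.11 times the highest nPD-L1 library. Replicate 2 was the low library of the vector group, and replicate 1 the high library of the nPD-L1 group. The means were 995 ± 229 and 222 ± 108 (SD, n = 3 each), which is 77.7% lower. On the log2(value + 1) scale the difference was −2.23 with a standard error of 0.29. In the 4 libraries whose whole reads were recovered, RGS2 rested on 647 and 1088 reads in vector replicates 2 and 3. It rested on 412 and 171 reads in nPD-L1 replicates 1 and 3. These are bulk libraries, in which fewer cells that express a gene and less RNA in each cell cannot be told apart.

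**Figure D1:**
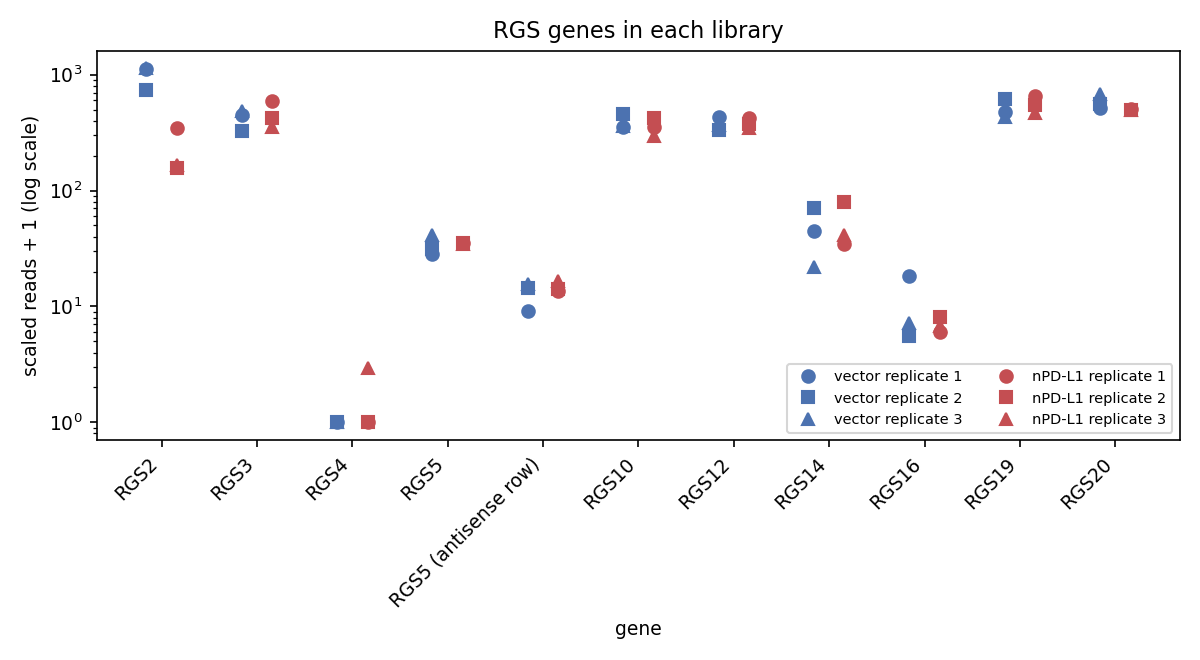
Scaled reads plus 1 (log scale) of the 11 RGS rows in each of the 6 libraries, blue for vector and red for nPD-L1, with a symbol for each replicate number. The red points lie below the blue points for RGS2, from 154.8 to 346.2 against 730.7 to 1131, and for RGS20, by a smaller distance.

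RGS2 stood low among all genes as well as among the RGS genes. This rank is on the value by which RGS2 was chosen, so it is a description. Of the 15076 genes that reached 10 scaled reads in 3 or more libraries, 14 had a lower log2 fold change than RGS2. Among the 10725 of these with a mean of at least 100, 4 did. The median size of the log2 fold change over all tested genes was 0.163, and the largest among the other RGS rows was 0.247. Of the 11 RGS rows, 9 rows of 8 genes reached the minimum. The groups did not overlap for 2 of the 9 rows, RGS2 and RGS20, beside 20.6% of all tested genes. The median log2 fold change of the 9 rows was 0.08, with 6 rows higher and 3 lower by sign, and that of all tested genes was −0.02.

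RGS2 belongs to the R4 subfamily, small RGS proteins that act mainly on Gαq and Gαi. The other R4 members here were RGS3, RGS4, RGS5 and RGS16. RGS3 (ENSG00000138835, chr9:113444731-113597743, + strand) has both short and long protein forms. In the vector libraries it was the R4 gene with the most scaled reads after RGS2. In the nPD-L1 libraries its mean of 457 lay above the 222 of RGS2. RGS3 had 445.1, 324.1 and 487.4 in vector against 595.0, 420.8 and 355.0 in nPD-L1, in replicate order. The groups overlapped and the log2 fold change was 0.11 with a standard error of 0.21.

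RGS5, best known from the pericytes of small vessels, had low values in both groups. Its protein-coding row (ENSG00000143248, chr1:163111121-163321791, − strand) had 27.25, 30.49 and 40.53 scaled reads in vector against 34.46, 34.39 and 33.76 in nPD-L1. The nPD-L1 libraries lay inside the vector range, with a log2 fold change of 0.08 and a standard error of 0.27. The antisense row (ENSG00000232995, chr1:163244505-163321894, − strand) had 8.07 to 14.55 in vector against 12.61 to 15.43 in nPD-L1. The antisense row lies on the same strand as RGS5, while NUF2 lies on the + strand. Of the antisense row's exon bases, 14.9% are shared with RGS5 or NUF2. Reads on bases shared with RGS5 cannot be told apart because the strand is the same. Those on bases shared with NUF2 cannot because the library kit does not mark strand. Among the RGS5 exon bases, 7.83% are shared with the antisense row, while the other RGS genes share 0 exon bases with another gene of the annotation.

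RGS16 and RGS4 were under the minimum for testing. RGS16 (ENSG00000143333, chr1:182598623-182604408, − strand), an R4 protein that acts on Gαi and Gαq, had 17.16, 4.52 and 6.24 scaled reads in vector against 5.04, 7.08 and 5.79 in nPD-L1. The vector libraries ran from 4.52 to 17.16, and vector replicate 1 alone lay above 10. RGS4 (ENSG00000117152, chr1:163068775-163076802, + strand), an R4 protein studied mostly in brain and heart, had 0 in 5 libraries and 1.93 in nPD-L1 replicate 3, which stood for 2 reads. Because 0 reads in a library allows up to 3, no difference in RGS4 was detectable at this depth, and this limit covers counting error only.

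RGS10, RGS12 and RGS14 form the R12 subfamily, which acts on Gαi and Gαo. RGS10 (ENSG00000148908, chr10:119499828-119542708, − strand), a small protein of little more than the RGS domain, had 351.3, 458.5 and 357.5 scaled reads in vector against 355.5, 424.8 and 297.1 in nPD-L1. The groups overlapped, with a log2 fold change of −0.12 and a standard error of 0.16. RGS12 (ENSG00000159788, chr4:3293028-3439913, + strand), a large scaffold that also binds Ras proteins, had 425.9, 334.3 and 370.0 against 420.2, 371.2 and 348.2. Its nPD-L1 libraries lay inside the vector range, with a log2 fold change of 0.01 and a standard error of 0.14. RGS14 (ENSG00000169220, chr5:177357837-177372601, + strand), which like RGS12 carries a GoLoco motif that holds Gα in its GDP form, had 43.40, 70.02 and 20.79 against 33.62, 78.89 and 40.52. Replicate 2 was the highest library for RGS14 in both groups, the groups overlapped, and the standard error of 0.44 was larger than the log2 fold change of 0.25.

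RGS19 and RGS20 belong to the RZ subfamily, whose members carry a string of cysteines and act on Gαi and Gαz. RGS19 (ENSG00000171700, chr20:64073181-64079988, − strand) had 479.4, 611.0 and 433.4 scaled reads in vector against 653.0, 544.1 and 464.0 in nPD-L1. The groups overlapped, with a log2 fold change of 0.13 and a standard error of 0.16. RGS20 (ENSG00000147509, chr8:53851808-53959303, + strand) had 513.8, 553.4 and 678.6 against 504.2, 491.6 and 496.8. All 3 nPD-L1 libraries of RGS20 lay below the vector libraries, by a margin of 513.8 to 504.2 at the nearest. Its log2 fold change was −0.22 with a standard error of 0.13, and −0.10 without vector replicate 3, the library with the highest value.

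**Figure D2:**
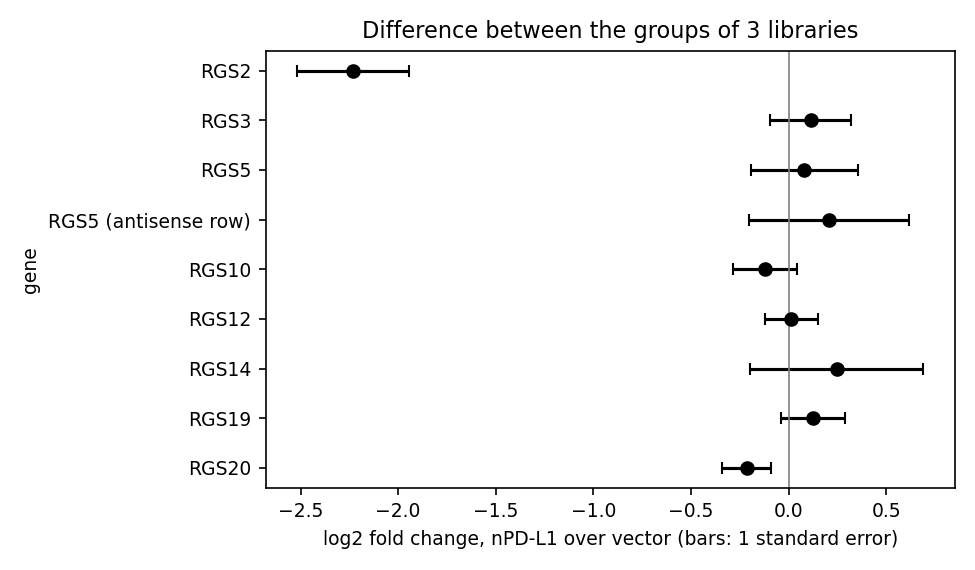
Log2 fold change, nPD-L1 over vector, of the 9 RGS rows that reached the minimum, with bars of 1 standard error. RGS2 lies at −2.23, and the other 8 rows lie between −0.22 and 0.25.

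Most of the other rows did not keep a direction over the alternatives. The log2 fold change of RGS3 ran from −0.09 to 0.28 over its alternatives, that of RGS10 from −0.32 to 0.01, that of RGS14 from −0.29 to 0.64 and that of RGS12 from −0.07 to 0.13. RGS5 ran from −0.06 to 0.24, its antisense row from −0.04 to 0.35, and RGS19 from −0.0003 to 0.27. Each of these 7 rows thus had both signs. RGS20 stayed below 0, from −0.30 to −0.10, and RGS2 ran from −2.60 to −1.86.

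RGS2 was the most abundant of the RGS genes per kilobase of exon in the vector libraries and not in the nPD-L1 libraries. In the vector libraries its level was 475 ± 109 scaled reads per kilobase (SD, n = 3), from 348.6 to 539.5. RGS10 followed at 311 ± 48.1, then RGS19 at 250.5 ± 45.5 and RGS20 at 182 ± 27.0 scaled reads per kilobase. RGS2 and RGS10 overlapped, RGS10 and RGS19 overlapped, and RGS19 lay above RGS20 in every library. A gap separated these 4 genes from RGS3 (30.4 per kilobase) and RGS12 (27.4), which overlapped each other and lay above RGS14 (11.8). RGS14, RGS5 (4.80), RGS16 (3.83) and the antisense row (3.33) overlapped neighbour by neighbour, and RGS4 was at 0.

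In the nPD-L1 libraries RGS2 ranked 4 among the RGS genes. RGS10 led at 287 ± 51.1 scaled reads per kilobase, and RGS19 at 273 ± 46.8 overlapped it. RGS20 stood at 156 ± 1.99, below both in every library. RGS2 followed at 106 ± 51.4, from 73.8 to 165.2, a range that overlapped RGS20 and lay above RGS3 (33.1). The remaining order per kilobase was RGS12 (27.6), RGS14 (13.4), RGS5 (5.01), the antisense row (3.79), RGS16 (2.46) and RGS4 (0.133), of which RGS3 and RGS12 alone overlapped. Seen against all tested genes per length, the mean of RGS2 exceeded that of 87.5% of genes in vector against 57.3% in nPD-L1. For RGS10 these shares were 80.6% and 79.6%, for RGS19 76.9% and 78.6%, and for RGS20 70.3% and 66.5%.

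**Figure D3:**
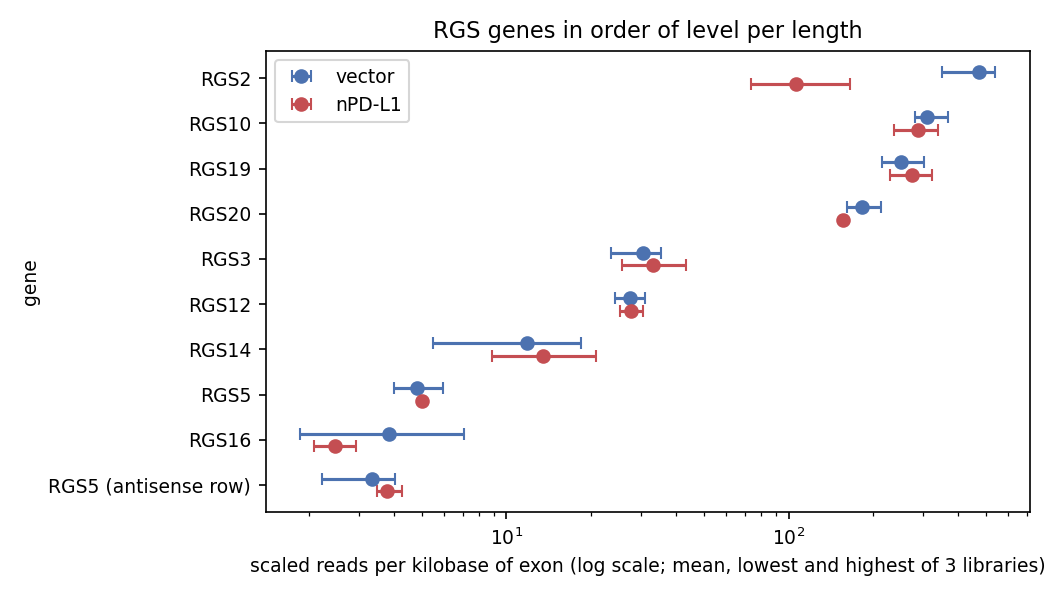
Scaled reads per kilobase of exon (log scale) of the RGS rows other than RGS4, as the mean with the lowest and highest of 3 libraries, blue for vector and red for nPD-L1. RGS2 is first among the vector means at 475 and ranks 4 among the nPD-L1 means at 106, while the other genes keep nearly the same place.

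RGS2 made up a smaller share of the summed RGS level in the nPD-L1 libraries. The share was 41.2%, 27.5% and 40.5% in vector replicates 1, 2 and 3, and 16.2%, 7.98% and 10.2% in nPD-L1 replicates 1, 2 and 3. The groups did not overlap, with means of 36.4% ± 7.68 and 11.4% ± 4.24 (SD, n = 3). The sum over all 11 rows was 1300 ± 32.9 scaled reads per kilobase in vector against 907 ± 125 in nPD-L1, and these groups did not overlap either. Without RGS2 the sums were 825 ± 80.9 and 801 ± 91.7, and they overlapped. The share and the sum both contain RGS2, which was chosen for its difference.

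**Figure D4:**
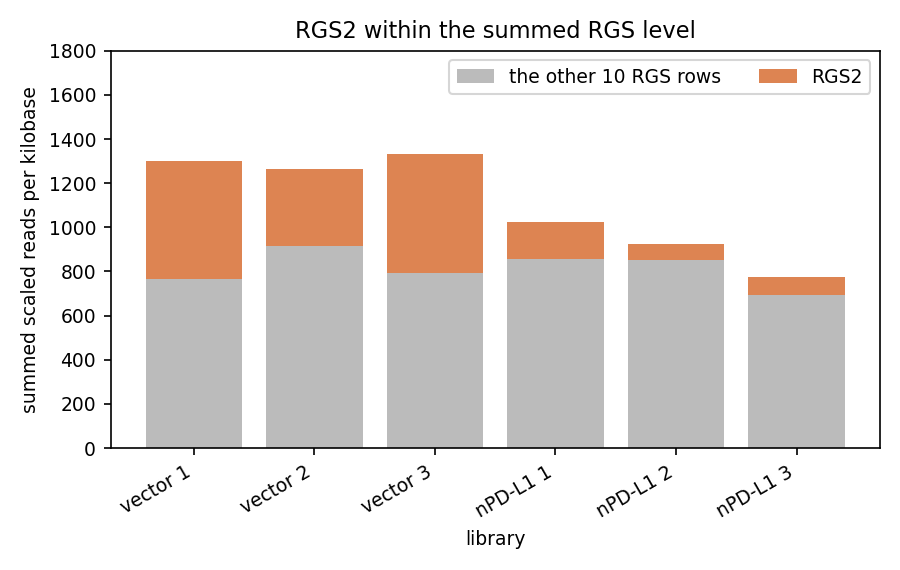
Summed scaled reads per kilobase of the 11 RGS rows in each library, with RGS2 in orange and the other 10 rows in grey. The grey parts overlap between the groups, from 766 to 917 in vector and from 695 to 857 in nPD-L1, and the orange parts do not.

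RGS2 also varied more within a group than most genes of its level. The highest nPD-L1 library was 2.24 times the lowest, and the highest vector library 1.55 times the lowest. Its SD on the log2 scale was 0.64 among the nPD-L1 libraries, larger than that of 99.6% of genes whose mean lay within 0.5 log2 units of it. Among the vector libraries it was 0.36, larger than that of 92.7% of such genes. RGS14 had an SD of 0.86 in vector and 0.64 in nPD-L1, larger than that of 96% and 96.2% of genes of its level. The SD of RGS3 exceeded that of 83.6% of such genes in vector and 98.6% in nPD-L1. For RGS19 these shares were 74.3% and 92.2%, for RGS10 60.7% and 90.7%, and for RGS12 47.7% and 53.9%. RGS20 had an SD of 0.21 in vector, larger than that of 64.5% of such genes, and of 0.02 in nPD-L1, larger than that of 1.54%. RGS5 had an SD of 0.29 in vector (31.5%) and of 0.02 in nPD-L1 (0.509%), and its antisense row exceeded 35.6% and 6.9% of such genes.

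The genes most like RGS2 over the libraries were sought among 10724 tested genes with a mean of at least 100, by Pearson's r of log2 values over the 6 libraries. These 6 points share the group difference and the library totals, so r is a description. The 5 closest were ZSWIM9 (r = 0.996), TMEM138 (0.996), MRM1 (0.994), ALDH1B1 (0.992) and SPOUT1 (0.991). Their log2 fold changes were −0.40, −0.23, −0.35, −0.40 and −0.30, much smaller than that of RGS2. An r of at least 0.9 was reached by 236 genes. Among the RGS rows the r with RGS2 was highest for RGS20 at 0.68. It lay between −0.46 (the RGS5 antisense row) and 0.23 (RGS12) for the other 7 tested rows.

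Of the RGS genes outside these 10, the table held rows for RGS1, RGS7, RGS9, RGS11, RGS17 and RGS22. RGS6, RGS8, RGS13, RGS18 and RGS21 were not analysed here. RGS9, an R7 protein known from the retina and striatum, and RGS17, an RZ protein, were the most abundant of them. RGS9 had 293 ± 35.6 scaled reads in vector against 258 ± 41.3 in nPD-L1, with a log2 fold change of −0.19. RGS17 had 223 ± 47.7 and 204 ± 39.7, with a log2 fold change of −0.12. Neither these nor RGS22 (log2 fold change 0.51), the 3 that were tested, passed the threshold.

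The rest of the G protein pathway was followed through lists of 189 genes set by role, of which 131 were tested. The lists were chosen with earlier results of these data known, so the shares called are a description. In limma 8 of the 131 genes were higher and 7 lower at an adjusted p under 0.05, 11.5% together. The median log2 fold change was 0.05. Of all tested genes 4.96% were past this threshold, 4.04% as higher and 0.922% as lower, and 0.451% were lower by at least 2-fold as well. These counts moved by over 1.5 times when vector replicate 1, nPD-L1 replicate 1 or nPD-L1 replicate 3 was left out. The count of higher genes was 5 without nPD-L1 replicate 1 and 5 without nPD-L1 replicate 3. The count of lower genes was 4 without vector replicate 1 and 3 without nPD-L1 replicate 3.

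Among the Gα subunits, on which RGS proteins act, 1 of 10 tested genes was called. GNAI1, which encodes Gαi1, had 2411, 3131 and 2136 scaled reads in vector against 1371, 1658 and 1692 in nPD-L1. The groups did not overlap, and the log2 fold change was −0.69 (SE 0.15, adjusted p 0.020 in limma). The call was lost without any 1 of vector replicate 1 and the 3 nPD-L1 replicates, at adjusted p from 0.0547 to 0.129. The subunit most abundant per length in the vector libraries, GNA13, had a log2 fold change of 0.22 and was not called. None of 9 tested β and γ subunits was called in limma, 0 at an unadjusted p under 0.05, and GNB2, the most abundant on the same scale, had a log2 fold change of −0.09. None of 9 tested Gα chaperones and dissociation inhibitors was called in limma (1 at an unadjusted p under 0.05), with NUCB1, the most abundant per kilobase in vector, at a log2 fold change of −0.06.

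Of 12 tested genes with other RGS or RGS-like domains 1 was called. AXIN2, a scaffold of β-catenin destruction and a known Wnt target, had 187.7, 97.1 and 163.2 scaled reads in vector against 64.7, 51.6 and 40.5 in nPD-L1. The log2 fold change was −1.47 (SE 0.28, adjusted p 0.010 in limma), and the call was lost without vector replicate 1 (0.0704) or nPD-L1 replicate 3 (0.0656). ARHGEF1, a RhoA exchange factor and the most abundant of this list per kilobase in vector, had a log2 fold change of −0.16. None of 7 tested genes for RGS binding and turnover was called in limma (0 at an unadjusted p under 0.05), among them ATE1, which arginylates N-terminal residues and so marks some R4 proteins for degradation, at 0.12. None of the 7 receptor kinases and arrestins was called in limma (0 at an unadjusted p under 0.05), with GRK6, the most abundant per kilobase in vector, at a log2 fold change of −0.22. In both these lists, and in those of β and γ subunits and of chaperones, edgeR and DESeq2 on 4 libraries also called 0.

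The receptors upstream held 7 of the 15 calls. Of 23 tested receptor genes 5 were called higher and 2 lower in nPD-L1, which is 30.4%, beside 4.96% of all tested genes. This share includes LPAR5 and is a description, because the list was chosen with earlier results known. P2RY2, a nucleotide receptor that couples to Gαq, had 68.6, 84.7 and 84.2 scaled reads in vector against 326.1, 332.8 and 265.3 in nPD-L1 (log2 fold change 1.95, SE 0.17, adjusted p 6.1e-05 in limma). S1PR5, a sphingosine 1-phosphate receptor that couples to Gαi, had 22.2 to 29.4 and 125.4 to 145.6 (2.36, SE 0.22, 8.7e-05). LPAR5, a lysophosphatidic acid receptor, had 3.03, 0 and 0 against 40.34, 33.38 and 43.41. With each vector library set to 3 reads, the nPD-L1 mean was 12.3 times the vector mean. That is no lower bound, because vector replicate 1 itself stood at 3 reads. LPAR5 reached the minimum for testing only through the nPD-L1 libraries, in which it was high, so its call, though counted above, is given no weight. P2RY2 and S1PR5 kept their calls in each of 17 alternatives.

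The other called receptors rested on fewer settings. GIPR, the receptor of the gut hormone GIP and coupled to Gαs, had 42.4 to 57.6 scaled reads in vector against 115.1 to 301.0 in nPD-L1 (log2 fold change 1.97, adjusted p 0.0036 in limma). ADRA1B, the α1B adrenoceptor, was a seventh call outside the naming rule and was named after its values were seen. It had 245.1 to 340.2 against 491.0 to 583.2 (0.85, adjusted p 0.0071), and 0.0611 without nPD-L1 replicate 1. PTGER4, a prostaglandin E2 receptor that also raises cyclic AMP, had 93.7 to 109.0 against 24.4 to 57.7 (−1.40, adjusted p 0.019), and lost it without vector replicate 1 (0.103), nPD-L1 replicate 1 (0.0654) or nPD-L1 replicate 3 (0.0858). F2RL1, a protease-activated receptor and the most abundant of the list per kilobase in vector, had a log2 fold change of 0.16 and was not called.

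Downstream, the cyclic AMP branch held 32 tested genes with 1 called in each direction, both phosphodiesterases of the PDE4 family, which break down cyclic AMP. PDE4A had 75.7, 55.3 and 72.7 scaled reads in vector against 192.4, 141.6 and 141.8 in nPD-L1 (log2 fold change 1.21, SE 0.21, adjusted p 0.0057 in limma). PDE4B had 837.8, 886.6 and 779.4 against 482.4, 474.4 and 490.1 (−0.79, SE 0.11, adjusted p 0.0012). PRKAR1A, a regulatory subunit of protein kinase A and the most abundant of the branch per kilobase in vector, had a log2 fold change of 0.04. Of 13 tested genes of the Gq branch 1 was called. PRKCE, a protein kinase C isoform that diacylglycerol activates, had 218.0 to 360.6 against 501.7 to 630.3 (0.91, adjusted p 0.017), and lost its call without nPD-L1 replicate 1 (0.122) or 3 (0.096). PRKCA, the most abundant of that branch per kilobase in vector, had a log2 fold change of 0.24.

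Among 9 tested CREB target genes, which cyclic AMP can induce as it can RGS2, 1 was called higher and 2 lower. Of all tested genes 4.04% were called higher and 0.922% lower. By sign 5 of the 9 CREB target genes were higher and 4 lower, with a median log2 fold change of 0.07. AREG, an EGF receptor ligand, had 5551, 6136 and 5492 scaled reads in vector against 2967, 2588 and 2665 in nPD-L1 (log2 fold change −1.06, SE 0.10, adjusted p 9.8e-05 in limma). BDNF, a neurotrophin, had 266.1 to 443.1 against 100.1 to 110.9 (−1.71, SE 0.19, adjusted p 0.00035). Both kept their calls in each of 17 alternatives. NR4A3, a nuclear receptor of the immediate-early class, moved the other way, with 109.0 to 125.8 against 176.5 to 235.4 (0.89, adjusted p 0.012), and lost its call without vector replicate 1 (0.0646), nPD-L1 replicate 2 (0.0759) or nPD-L1 replicate 3 (0.0868).

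**Figure D5:**
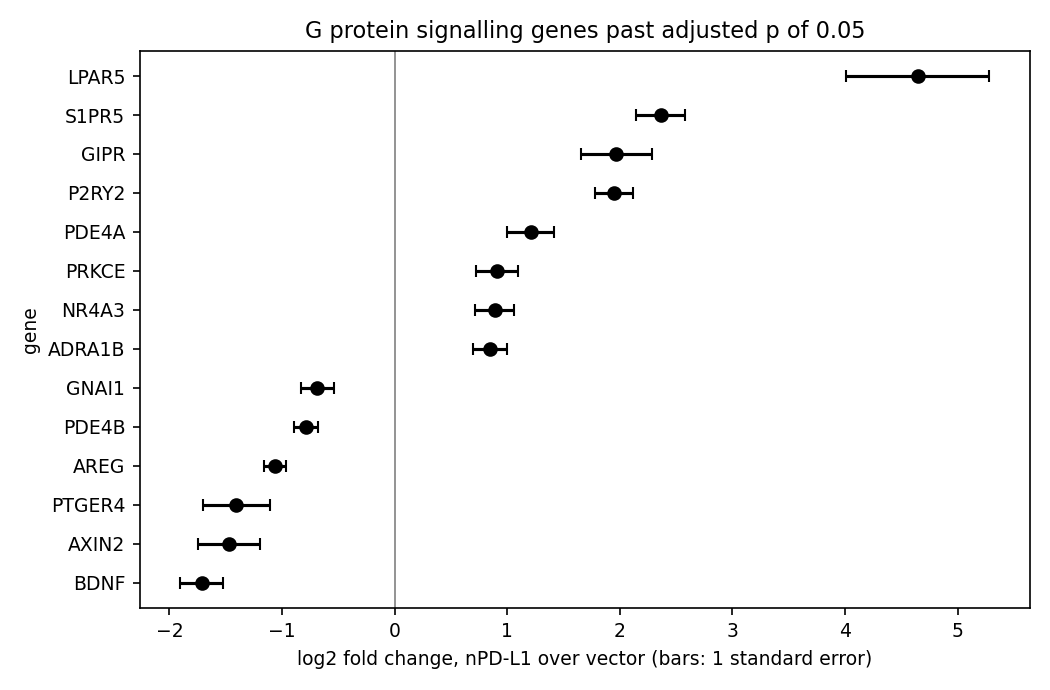
Log2 fold change, nPD-L1 over vector, of 14 G protein pathway genes past an adjusted p of 0.05, with bars of 1 standard error. The 8 genes right of 0 include 5 receptors and the 6 left of it include GNAI1, PDE4B and AREG. The position of LPAR5 depends on the pseudocount, because its vector libraries were at or under 3 reads.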

How the data were processed

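RNA was measured in 6 libraries labelled as Hep3B PD-L1 knockout cells, 3 per group, prepared with a kit that does not mark strand. According to the submitters' processing notes, reads were handled with CASAVA and aligned with HISAT2 2.0.5 to hg38. The counting program and annotation are not given in the sources used here. The table the authors deposited holds a signal, in which the reads of a library are divided by its size factor, and no raw counts. Whole reads were recovered in 4 libraries (17427519 to 22253295 reads), where 100% of values were whole multiples of 1 step within 0.001 of the value. For large values this tolerance spans the gap between whole multiples, so the check could fail only at lower values. In the other 2, vector replicate 1 (step 1.009) and nPD-L1 replicate 2 (step 1.011), 100% of values were whole multiples too. Their whole reads were left out because the step lay within a set distance of 1. Other columns the authors deposited held their own log2 fold changes and p-values, which were not used.

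Values were tested as log2(value + 1) in limma 3.58.1 (R 4.3.3) with trended, robust moderation, on 15076 genes that reached 10 in 3 or more libraries, with Benjamini-Hochberg adjustment over all of them and a threshold of 0.05. The unit led to limma in place of a test of counts. Samples were grouped by their titles. Levels per kilobase used the exon length in the table. The RGS genes, pathway lists and markers were chosen with earlier results of these data known. All 10 RGS genes were named, with at most 6 called genes and the most abundant gene per list, the 5 genes most like RGS2, and CD274. Alternatives changed the scaling, filter, pseudocount, moderation, block and libraries, or used edgeR 4.0.16 or DESeq2 1.42.0 on the 4 libraries with whole reads recovered. Scripts were tested on simulated data. The values of 1 called receptor gene are not reported here, though the counts include it.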

Additional observations from a re-analysis of the deposited data

How the results depend on the processing

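RGS2 kept its direction in 17 alternatives, with log2 fold changes from −2.60 to −1.86 and, with 1 library left out, from −2.60 (without nPD-L1 replicate 1) to −2.02. All lay within 1 SD of the reported value. In the fits that gave 1, the standard error of RGS2 ran from 0.17 with a replicate block to 0.40 without vector replicate 2. It was 0.38 with no filter on low values, against 0.29 in the main fit. Of 135 values of the other RGS rows, 133 moved by under 1 SD, and RGS5 (0.24) and RGS20 (−0.10) moved by more without vector replicate 3. RGS2 was first in the vector libraries also without division by length, but ranked 6 in place of 4 in the nPD-L1 libraries. The count over all genes was 609 higher and 139 lower. These became 235 and 48 in edgeR, 333 and 85 in DESeq2 and 254 and 53 in limma, each on 4 libraries, and 306 and 68 with a 2-fold minimum. With 1 library left out they ran from 331 (without nPD-L1 replicate 3) to 791 (without vector replicate 2) and from 76 (without vector replicate 1) to 242 (without vector replicate 2). Without nPD-L1 replicates 1 and 2 in turn they were 337 and 83, then 375 and 85, and 77 were lower without nPD-L1 replicate 3. Without vector replicate 1 405 were higher. The pathway counts of 8 and 7 became 3 and 3 in edgeR, 4 lower in limma on 4 libraries and 5 higher with a 2-fold minimum, and ran from 5 to 10 and from 3 to 8 with 1 library left out. The cause of these shifts was not tested, beyond the fewer samples used.

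Whether the replicate numbers pair the libraries was not settled. The r of deviations from the group means was −0.01, 0.23 and 0.13 for same-numbered pairs. For differently numbered pairs it ran from −0.22 to 0.08. With the number as a replicate block 927 genes were higher and 258 lower, 13 pathway genes were higher, and the standard error of RGS2 was 0.17. Of 250 alternatives for the 15 called pathway genes, 33 lost the call and 0 turned direction. Those outside single left-out libraries were GIPR (0.0541), PDE4A (0.0508), PTGER4 (0.0607) and PRKCE (0.0706) in edgeR, PDE4B (0.0738) and ADRA1B (0.0748) in edgeR and, at 0.0626 and 0.0658, in limma on 4 libraries, GNAI1 in edgeR (0.165) and that limma fit (0.129), and AXIN2 (0.0774 to 0.164) and NR4A3 (0.27 to 0.304) in all 3 fits on 4 libraries. Over all alternatives the adjusted p ran from 0.000552 to 0.165 for GNAI1. With 3 libraries a group and low reads for RGS4, RGS5 and RGS16, differences in those genes smaller than their spread were not detectable.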
